A study of Mus musculus with 24 samples.

Results

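A group of 140 cDNA clones gave a lower signal from female than from male embryonic stem (ES) cells early in differentiation and had lost that difference by its late days. The clones were chosen on these same values. Each clone carries a log2 female:male ratio (M value) on each array, and each array was set to a median of 0. E was the mean over the 8 arrays of days 0, 2 and 4, and L the mean over the 10 arrays of days 12, 15 and 21. A clone belonged to the group when E was at most -0.5, a linear ratio of 0.707, and L was above -0.2, a linear ratio of 0.871. Only clones with a value on all 20 ES cell arrays could be chosen, and 140 of these 3527 clones (3.97%) qualified, out of 15247 clones listed. The ratios of day 7, lymphocytes and inner cell mass (ICM) played no part in the choice, although a clone needed a value on both day 7 arrays.

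Labelled cDNAs of female and male cells were hybridised together to NIA 15K arrays, glass slides printed with mouse cDNA clones. The ES cells were the female line PGK12.1, a 129 × PGK hybrid, against the male line CCE/R, of 129/sv background, which were left to differentiate in dishes they cannot attach to, with leukaemia inhibitory factor withdrawn. There were 4 arrays of undifferentiated cells (day 0), 2 of day 2, 2 of day 4, 2 of day 7, 3 of day 12, 2 of day 15 and 5 of day 21. A further 2 arrays compared female with male thymic lymphocytes of Balb/c mice aged 4 weeks, and 2 compared female with male ICM, the inner cells of the blastocyst, from cultured Balb/c embryos with amplified RNA. Each sex of ES cell is a single line, so sex and line cannot be told apart on any ES cell array, and for ICM the male samples were technical replicates.

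ES cells are pluripotent cells derived from the ICM. Female ES cells start with both X chromosomes active and silence one of them as they differentiate, while a culture without leukaemia inhibitory factor also turns down genes of the pluripotent state and turns on genes of the early cell lineages. A female:male ratio at a given day is therefore open both to a gene's dosage and to the pace at which each line differentiates. In cultures of many cells, a smaller share of cells of a type and less RNA per cell cannot be told apart. The clones are listed by library name, and 0 of them matched the RefSeq gene table used here. No clone is therefore given a gene, a role or a chromosome, and the labelled cell types could not be set against their markers. The paper counts fewer named genes than clones on these arrays, so members can share a gene, and which ones do is unknown here.

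Arrays are called by their replicate letters. The fewest clones measured on an array were 4985 and the most 13736. The female sample was labelled with Cy3 on 4 of the 20 ES cell arrays, namely A of day 0, both arrays of day 15 (N and O) and P of day 21, and with Cy5 on the others. Ratios were read as female over male, as the study defines its M value. Days 2, 4, 7, 12 and 15 have a single dye orientation each, so a dye effect cannot be told apart from the day there. In lymphocytes and ICM the female sample was in Cy5 on every array, so dye and sex cannot be told apart in them. Over all clones, arrays of day 12 and day 21 correlated at down to r = -0.52 (arrays K and Q), and over the clones with a value on all 20 ES cell arrays at -0.19 to 0.38. The direction of these days bears on who the members are: turning the sign of day 12 gave 180 members, of which 137 were among the 140, and turning that of day 21 gave 184, of which 81 were among them. Turning day 15 gave 141 members, 124 of them shared.

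By the choice itself, E ranged from -1.55 to -0.501 with a median of -0.62, and L from -0.198 to 2.14 with a median of 0.08. The clone just outside the early limit had E of -0.4996, and 33 members lay within 0.05 inside that limit against 24 clones within 0.05 outside it. At the late limit, the clone just outside had L of -0.202, with 8 members within 0.05 inside and 13 clones within 0.05 outside. Only 9 members had E below -1. The change L minus E had a median of 0.75 (25th to 75th percentile 0.61 to 0.98) and a highest value of 3.37. It was over 1 in 33 members and under 0.5 in 22. L was above 0 in 104 members and above 0.5 in 18.

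The members made up 55.3% of the 253 clones that were low early. Of the others, 60 lay in between at the late days (L above -0.5 and at most -0.2), and 53 were still low (L at most -0.5).

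**Figure D1:**
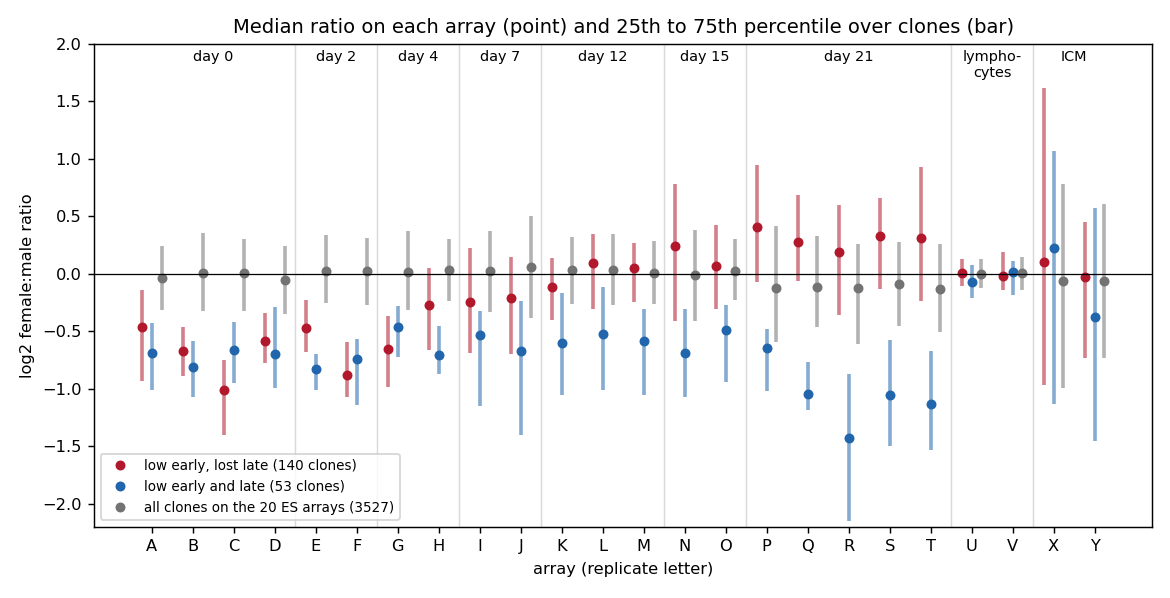
Median log2 female:male ratio (points) and 25th to 75th percentile over clones (bars) on each of the 24 arrays, for the 140 members (red), the 53 clones low early and late (blue) and all 3527 clones with a value on the 20 ES cell arrays (grey). The members' medians lie below 0 on all 8 arrays of days 0 to 4 and both arrays of day 7, and above 0 on 9 of the 10 arrays of days 12 to 21. The arrays before and after day 7 chose the members and the blue clones.

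The early deficit was not of one size across arrays. At day 0 the median over members was -0.47 on array A, -0.67 on B, -1.01 on C and -0.59 on D. At day 2 it was -0.47 on E and -0.88 on F, and at day 4 it was -0.65 on G and -0.27 on H. Array C was below 0 for 140 of 140 members and array H for 96. All 8 early arrays were below 0 in 66 members, at least 7 in 114, and the fewest was 5.

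The lowest early array of a member was C in 54 members (38.6%) and F in 30 (21.4%), whereas over the 3527 clones C was the lowest in 10.6% and F in 7.74%. Array G went the other way, as the lowest in 8.57% of members and 16.8% of the 3527 clones. Arrays C, F and G were grouped after the values were seen. Their mean was below that of the other 5 early arrays in 115 members (82.1%) and in 47.5% of the 3527 clones. The median member averaged -0.83 over C, F and G and -0.51 over the other 5 early arrays. In the 53 clones that were low early and late the same medians were -0.67 and -0.73, so those clones were not lower on C, F and G. On the other 5 arrays alone, 72 members averaged at most -0.5, 133 at most -0.2, and 2 were above 0. Choosing without C, F and G gave 100 members, 72 of them among the 140. Why the mean of C, F and G was lower in the members was not tested.

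The late values spread in both directions. The medians over members were -0.11, 0.09 and 0.05 on the day 12 arrays K, L and M, then 0.24 and 0.07 on the day 15 arrays N and O. At day 21 they were 0.41, 0.28, 0.19, 0.33 and 0.31 on arrays P, Q, R, S and T. The median of all 3527 clones was -0.13 at day 21, so the members lay further above the other clones than their ratio alone shows. All 10 late arrays were above 0 in 9 members and at least 8 in 29, while 63 members had at most 5 late arrays above 0. In 14 members no late array reached down to the highest early array. These arrays chose the members, and the share over the 3527 clones was not computed, so nothing is read from this count.

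By day, the median of the members' means was -0.67 in undifferentiated cells (linear ratio 0.628), -0.68 on day 2 and -0.52 on day 4. It was -0.31 on day 7. It was then -0.05 on day 12, 0.21 on day 15 and 0.26 on day 21 (linear ratio 1.19). The course of single clones was less regular than these medians. The mean was higher at day 4 than at day 0 in 86 members, higher at day 7 than at day 4 in 85, higher at day 12 than at day 7 in 95 and higher at day 21 than at day 12 in 97. All 3 late day means were above -0.2 in 62 members. In 40 members a late day was again at or below -0.5, and this was day 15 in 30 members, day 12 in 10 and day 21 in 2. The first day from which a member stayed above -0.2 was day 7 in 30 members, day 12 in 32, day 15 in 18 and day 21 in 42, and 18 members were not above it at day 21.

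**Figure D2:**
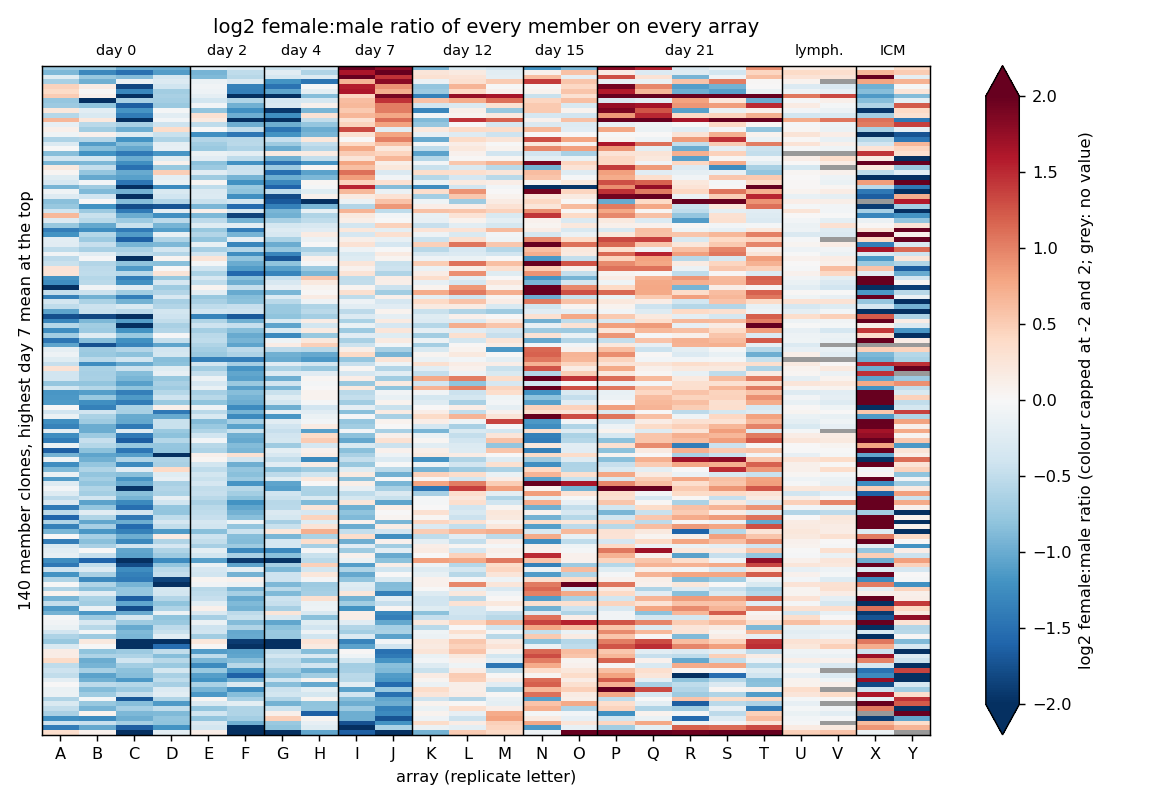
log2 female:male ratio of each of the 140 members (lines, ordered by day 7 mean with the highest at the top) on each of the 24 arrays (columns), blue below 0 and red above 0, with colours capped at -2 and 2 and grey where there is no value. Day 7 runs from means of 2.13 at the top to -1.80 at the bottom, while days 0 to 4 are blue almost throughout by the choice of members. The ICM arrays X and Y were of opposite sign in 48 members.

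Day 7 lay between the days that chose the members. The members' median was -0.24 on array I and -0.21 on array J, and -0.31 over the means of both, a linear ratio of 0.805. The median of all 3527 clones at day 7 was 0.02. The mean was below 0 in 105 members and above 0 in 35. It was at most -0.5 in 34, between that and -0.2 in 58, and above -0.2 in 48. Relative to their own early and late means, 91 members lay between E and L at day 7, 24 lay below E and 25 at or above L.

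The arrays of day 7 differed between themselves for many members. Both were below 0 in 57 members, both above 0 in 23, and of opposite sign in 60. The distance between them had a median of 0.66 and exceeded 1 in 34 members. Across clones, which are not independent replicates and share both arrays, I and J correlated at r = 0.38 over the 140 members and 0.59 over the 3527 clones.

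**Figure D3:**
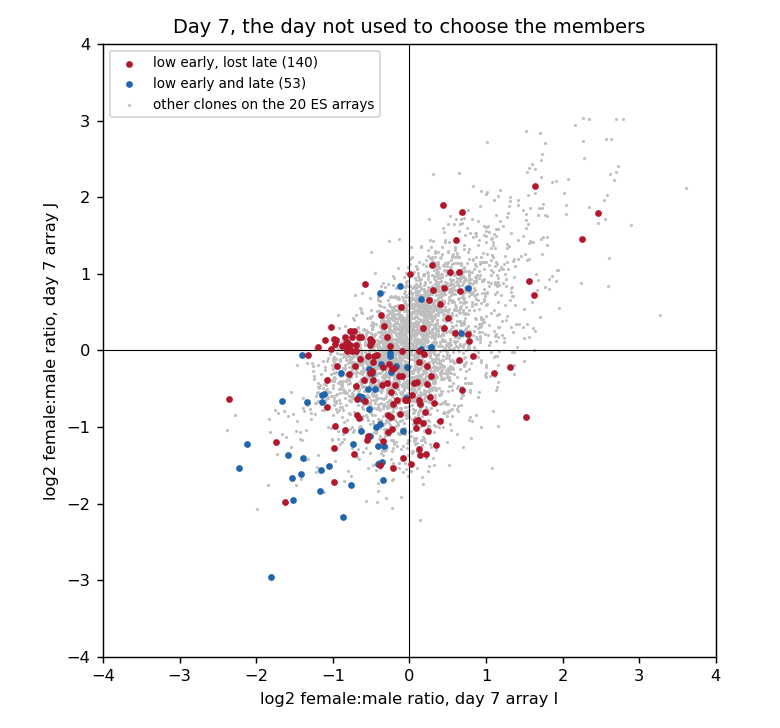
log2 female:male ratio of day 7 array J (vertical axis) against array I (horizontal axis), 1 point a clone, for the 140 members (red), the 53 clones low early and late (blue) and the other clones with a value on all 20 ES cell arrays (grey). Of the members, 57 lie below 0 on both arrays, 23 above 0 on both and 60 in the quadrants of opposite sign.

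Single clones at day 7 were tested with limma on all 20 ES cell arrays, with Benjamini-Hochberg adjustment over 7122 clones and a call at adjusted p under 0.05. Only 3 of the 140 members were called lower in female cells (2.14%), against 2.74% of all clones tested, and 4 were called higher (2.86%), against 7.06% of all. Of the 3527 clones that could be chosen, 3.71% were called lower and 8.56% higher. The members' share of higher calls was under both backgrounds. Their share of lower calls was near that of all clones tested and under that of the 3527, but single arrays moved this. The spread in this fit came from all 20 ES cell arrays, most of which chose the members. The median SE was 0.33 in the members and 0.26 in the 3527 clones, and a larger SE makes a call harder. Without array P of day 21, 10 members were called lower (7.14%, against 3.93% of all), and without array J 1 was called lower (0.714%, against 0.354%) and 3 higher (2.14%, against 1.34%). At an unadjusted p under 0.05, 22 members were lower (15.7%, against 9.44% of all clones) and 9 higher (6.43%, against 15.4% of all). Of the clones low early that stayed low, 16 of 53 (30.2%) were called lower at day 7, and of those in between, 8 of 60 (13.3%). The day 7 medians of these groups were -0.73 and -0.38, below the -0.31 of the members. The difference between the groups was not tested, since clones on the same arrays are not replicates. Should the ratios of day 7 run male over female, the lower and higher calls would change places.

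**Figure D4:**
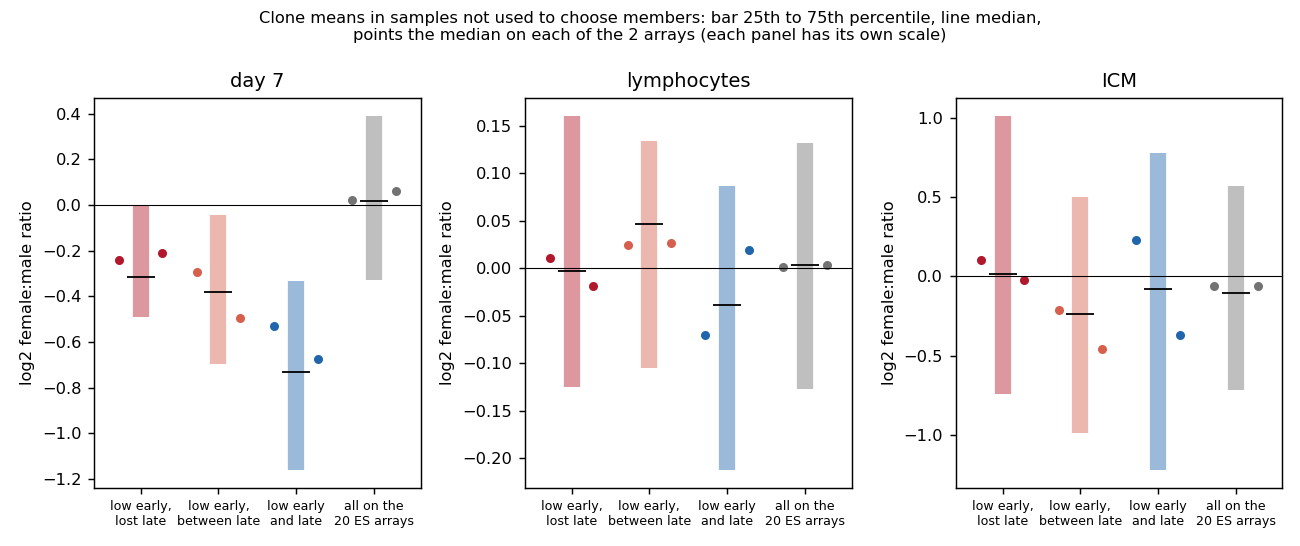
Clone means at day 7 (left), in lymphocytes (middle) and in ICM (right), for the members and, to their right, the clones low early and in between late, those low early and late, and all 3527 clones. Bars span the 25th to 75th percentile of log2 female:male ratios over clones, lines are medians of the clone means, and points are medians on each of the 2 arrays. The members' medians are -0.31, -0.003 and 0.018.

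The 3 members called lower at day 7 had M values of -0.77 to -1.47. Clone H3031a03 gave -1.74 and -1.20 on arrays I and J, a mean of -1.47 (SE 0.24, limma adjusted p = 0.0011). These were its lowest values on any array. Its early arrays gave -0.41, -0.47, -0.69 and -0.80 at day 0, -0.29 and -0.96 at day 2, and -0.74 and -0.16 at day 4. At the late days it gave 0.36, 0.15 and 0.47 at day 12, 0.77 and 0.24 at day 15, and 0.42, 0.78, -0.13, -0.06 and 0.26 at day 21. The clone thus stepped down further at day 7 and lay near or above 0 from day 12, with no late array as low as its highest early one.

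Clone H3062h12 gave -0.98 and -1.72 at day 7, a mean of -1.35 (SE 0.36, limma adjusted p = 0.025). It had 4 day 0 arrays between -1.25 and -0.80, then -0.78 and -0.68 at day 2, but 0.48 and 0.05 at day 4. Its 3 day 12 arrays gave -0.10, -0.43 and 0.81, those of day 15 gave 0.18 and -0.17, and those of day 21 gave -0.39, -0.13, -1.56, -0.26 and 0.61. Early and late arrays overlapped in this clone, and its L of -0.14 was just inside the limit. The limma adjusted p was no longer under 0.05 without array I (0.063) or without array J (0.42), and for H3031a03 it was 0.051 without array I. The third member called lower gave -0.66 and -0.88 (adjusted p = 0.030). Without array I, day 7 rests on array J alone, and the lower calls then fell on other members than these.

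The lowest day 7 mean among the members, -1.80, was not called. Its arrays gave -1.63 and -1.98, but the SE was 0.78 and the limma adjusted p was 0.16. In that clone, chosen after its values were seen, E was -1.21 and the day 21 mean 2.49. At the other end, 17 members had a day 7 mean of at least 0.5 and 8 of at least 1. The 4 members called higher had M values of 1.25 to 2.13, with every value on arrays I and J between 0.69 and 2.47 and limma adjusted p from 8.7e-05 to 0.018. These 4 clones had means of -1.33 to -0.30 at day 4 and of -0.54 to 0.23 at day 12, so day 7 stood above the days on either side in each of them.

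The 2 clones with the largest change between early and late days had their highest mean ratios at day 21. Clone H3050h04 had the largest L minus E, 3.37. At day 0 it gave 0.51, 0.09, -3.18 and -0.65 on arrays A to D. At day 2 it gave -0.17 and -2.99 on E and F, and at day 4 -2.60 and -0.86 on G and H. The low early mean of -1.23 thus came from arrays C, F and G, which averaged -2.92, while the other 5 averaged -0.22. Its late values were -1.35, 1.74 and 1.65 at day 12, -0.45 and 0.31 at day 15, and 5.26, 4.79, 2.22, 3.08 and 4.18 at day 21. All 5 arrays of day 21 were higher than any of its other ES cell arrays. At day 7 it gave 0.43 and 1.90, a mean of 1.17 that was not called (SE 0.91, limma adjusted p = 0.48). Fitted on the day 7 arrays alone, which leaves out the spread on other days, it was called (adjusted p = 0.0069).

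Clone H3006a09 had the next largest change, 2.76, and a course close to that of H3050h04. On arrays A to D it gave 0.66, 0.21, -3.00 and -0.06, then 0.18 and -2.82 on E and F, and -2.90 and -0.49 on G and H. Without C, F and G its early mean was 0.10, so on those 5 arrays there was no low ratio to lose. It gave -0.89, 1.45 and 1.18 at day 12, 0.09 and 0.59 at day 15, and 4.25, 4.11, 1.66, 2.35 and 2.55 at day 21. Day 7 was 0.29 and 1.11 (mean 0.70, SE 0.87, limma adjusted p = 0.70). Over the 24 arrays, most of which chose both clones, the ratios of H3050h04 and H3006a09 correlated at r = 0.95. Whether both clones carry the same gene is unknown here. The next changes in size were 2.66 and 2.18. Day 21 was not the highest day in all members with a large change. The member with 2.18 had its highest day mean at day 12 (0.88, against 0.60 at day 21). A member with a change of 1.684 was highest at day 15 (2.35, against 0.66 at day 21).

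**Figure D5:**
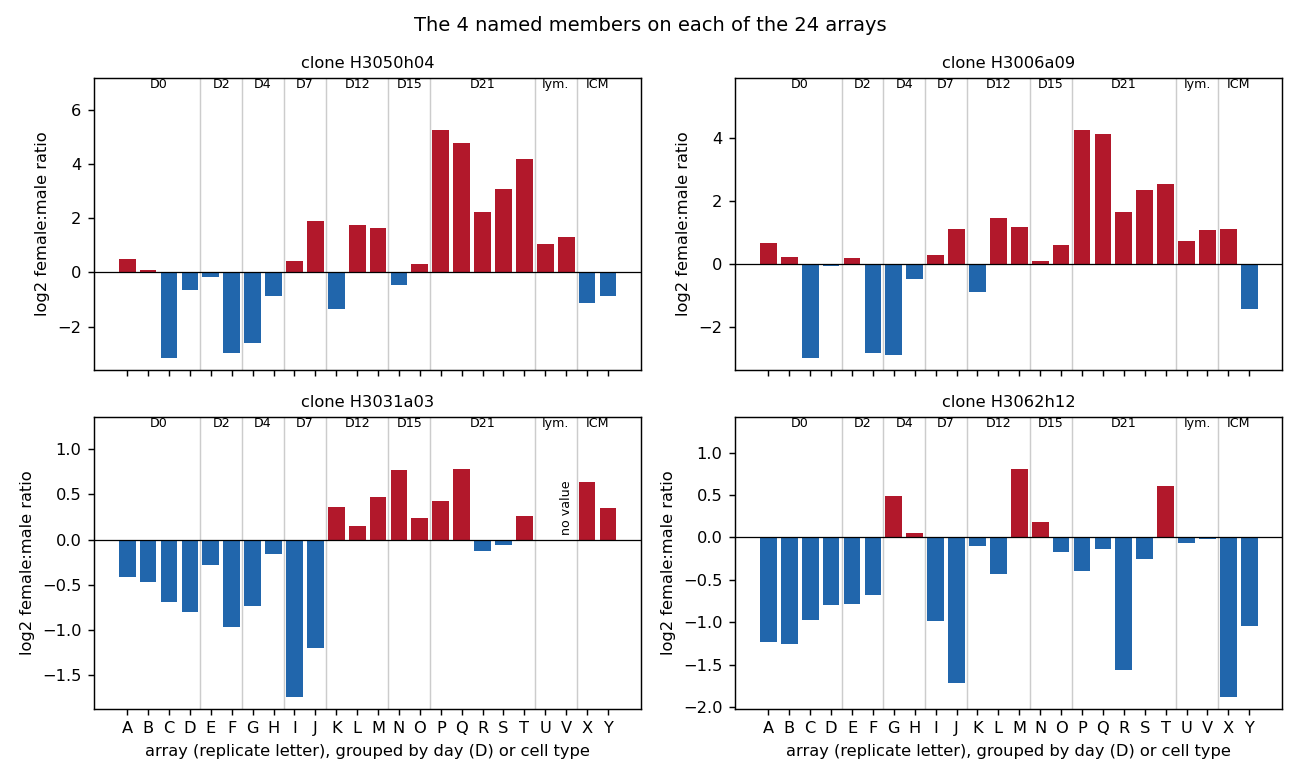
log2 female:male ratio (bars from 0, red above and blue below) of the 4 named members on each of the 24 arrays, grouped by day or cell type, with a scale of its own in each panel. In H3050h04 and H3006a09 the low early values stand on arrays C, F and G and the high ones on the 5 day 21 arrays. In H3031a03 and H3062h12 the lowest ES cell value stands on a day 7 array, I in the one and J in the other.

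In lymphocytes, 138 members had a value and 129 had one on both arrays. The members' median was 0.01 on array U and -0.02 on V, and -0.003 over their means, against 0.004 for the 3527 clones. The mean was below 0 in 69 members and above 0 in 69. Tested with limma on the 2 arrays over 7781 clones, 1 of 129 members was lower in female lymphocytes (0.775%, M value -0.56, adjusted p = 0.030), against 5.68% of all clones, and 6 were higher (4.65%), against 5.27% of all. At an unadjusted p under 0.05 there were 16 lower (12.4%, against 18.7% of all clones) and 26 higher (20.2%, against 18% of all). The share of higher calls was near the background and that of lower calls under it. The arrays correlated at r = 0.81 over the members, which are not replicates, and their spread was small, with a 25th to 75th percentile of the member means of -0.13 to 0.16.

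The 6 members higher in female lymphocytes had M values of 0.36 to 1.19 with limma adjusted p from 0.021 to 0.045. Of these, 5 had a day 21 mean above 0, as did 99 of the 140 members, which were chosen in part on day 21. None of the calls in lymphocytes was made when all 24 arrays were fitted together. That fit called hardly any clone in lymphocytes, with 1 of 6122 lower and 0 higher. The calls were also lost with either lymphocyte array left out, where a lone array remains. The 6 included the 3 members with the largest L minus E. Clone H3050h04 gave 1.05 and 1.32 (mean 1.19, SE 0.09, adjusted p = 0.021), the highest mean of all members, and H3006a09 gave 0.74 and 1.07 (mean 0.90, SE 0.10, adjusted p = 0.030), the next highest. H3062h12 gave -0.06 and -0.02, and H3031a03 gave -0.02 on array U with no value on V.

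In ICM, 139 members had a value and 135 had one on both arrays. The median was 0.11 on array X and -0.02 on Y, and 0.018 over the means, against -0.10 for the 3527 clones. With limma on the 2 arrays over 11515 clones, 0 members were called lower and 0 higher, as were 0% of all clones in each direction, and at an unadjusted p under 0.05 6 members were lower (4.44%, against 7.53% of all clones) and 3 higher (2.22%, against 5.95% of all). The precision was poor: the median SE of the members was 0.59, the arrays were of opposite sign in 48 members, and they correlated at r = 0.18 over members and 0.33 over the 3527 clones. At this spread no single clone was called, and how large a difference could have been detected was not tested. H3050h04 gave -1.14 and -0.87, opposite in sign to its lymphocyte values, H3006a09 1.10 and -1.43, H3031a03 0.63 and 0.35, and H3062h12 -1.89 and -1.04.

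The clone names begin with 1 of 159 prefixes in the library, and members came from 70 of them. There was 1 member in 41 prefixes, and the most in any was 9, of 67 clones with a value on all ES cell arrays. Of the clones of prefixes 3001 to 3040, 88 of 1739 (5.06%) were members, as were 25 of 492 (5.08%) of prefixes 3041 to 3080, 14 of 610 (2.30%) of 3081 to 3120 and 13 of 686 (1.90%) of 3121 to 3159. All clones low early showed a like pattern, with 8.68%, 9.15%, 4.92% and 3.94% of the clones in these prefixes, in the same order. Whether a prefix is a plate or a place on the slide was not tested.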

How the data were processed

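Slides were scanned by the authors, who read the signals with GenePix, took out abnormal spots manually and used Gepas to normalise. Which Gepas method and background correction they used is not given in the sources used here. Deposited values are log2 ratios, 1 per clone and array, and array medians ran from -0.0815 to 0.0398. Each array was centred on its median. Members were found by the rule given above. The mean of each day was fitted over the 20 ES cell arrays with limma 3.58.1 in R 4.3.3 on clones measured on 1 or more arrays of every day, and lymphocytes and ICM were fitted apart, on clones with both arrays. No spot counts or intensities were used, so depth is unknown and the number of arrays limits precision. P-values measure the spread between these arrays, which may be technical in part. At most 4 clones are named: the 2 with the largest L minus E, and the 2 with the lowest day 7 mean among those called lower. The members, groups and rules were chosen with earlier results of these data known.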

Additional observations from a re-analysis of the deposited data

Results flagged for a closer look

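Day 7, lymphocytes and ICM were compared in 15 pairs of groups, over the members' median and the 4 named clones. Pairs of H3031a03 with lymphocytes could not be judged, as it had no value on array V. In 3 pairs, all in named clones, both arrays of one kind lay above 0 and both of the other below 0. The difference was not tested in any of the 3. In H3050h04 the mean M value was 2.17 higher at day 7 than in ICM, with 0.43 and 1.90 at day 7 and -1.14 and -0.87 in ICM. In the same clone it was 2.19 higher in lymphocytes than in ICM, where lymphocytes gave 1.05 and 1.32. In H3031a03 the mean differed by -1.96 between day 7 and ICM, with -1.74 and -1.20 at day 7 and 0.63 and 0.35 in ICM. This clone was named for its low day 7 mean, so its day 7 side was set by that choice.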

How the results depend on the processing

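The number of members was 290 with clones lacking some values admitted and 29 with E at most -0.75, and leaving out single arrays gave 115 (without C) to 152 (without A). The other rules gave 100 to 184. The members' median at day 7 stayed below 0 throughout. It was -0.354 with arrays centred on the 3527 clones, -0.268 with arrays scaled, and -0.208 and -0.240 on a single array. With members chosen otherwise it was -0.342 (that centring, and days weighted equally), -0.282 (no day 15), -0.287 (missing values admitted), -0.234 (E at most -0.75), -0.265 (L above 0), -0.270 (Cy5 only), -0.406 (day 21 turned) and -0.354 (no C, F and G). In lymphocytes the median was 0.0283 with L above 0, 0.0425 with Cy5 only and -0.0313 without C, F and G. In ICM it was -0.0942 with day 15 turned, -0.0858 with day 12 turned, -0.385 with day 21 turned and -0.165 with arrays scaled. The Cy5-only choice, the turning of days 12 and 21 and the choices without C, F and G, without C and without H were added after seeing the data.

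By limma, members lower at day 7 numbered 1 with arrays scaled (0.714%, against 1.42% of all clones). They numbered 9 from the day 7 arrays alone (6.43%, against 4.86%) and 7 within the 3527 clones (5%, against 5.73%). Of the 150 members chosen without H, 5 were lower in the main fit, which called 2.74% of all clones lower. Leaving out single arrays gave 1 (without J) to 10 (without P), and 5 without G (3.57%, against 3.76%). Those higher numbered 8 from the day 7 arrays alone (5.71%, against 7.3%) and 2 (without I: 1.43%, against 3.64%) to 5 (without B: 3.57%, against 6.75%). In lymphocytes 0 members were lower and 0 higher with all 24 arrays in one fit, and of all 6122 clones 1 was lower and 0 higher. The calls were also lost with either array left out, which takes the lone array to vary like the other groups. In ICM the fit of all 24 arrays called 26 members lower (19.3%, against 21.9% of all clones) and 38 higher (28.1%, against 18.1%). The share of lower calls was under the background there and that of higher calls above it. With a single ICM array, 21 to 26 were called lower and 18 to 42 higher. Without X these were 15.3% and 13.1% of members, against 18.2% and 17.9% of all clones, and without Y 19% and 30.7%, against 26.2% and 21.6%. This fit lends ICM the smaller spread of the other arrays. No paired analysis was possible because the labels give arrays letters and no replicate numbers shared between days. The cause of these shifts was not tested.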
